A study of Rattus norvegicus with 2 samples.

Results

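The subunits of oxidative phosphorylation, the mitochondrial machinery that burns reduced cofactors with oxygen to make ATP, were measured in the liver that rats kept after partial hepatectomy (PH), an operation that takes out a share of the organ. Members were the nuclear genes whose array symbol began with Nduf followed by a, b, c, s or v and a digit, with Uqcr, with Atp5, or with Cox, a digit from 4 to 8 and a letter, together with Sdha to Sdhd and Cyc1. This gave 80 of the 14217 genes named on the array. The members comprised 35 genes named for complex I, 4 of complex II, 8 of complex III, 17 of complex IV and 16 of complex V. Where a gene had several probe sets, the brightest on average over both arrays stood for it. Rats of one group lost 1/3 of the liver (1/3PH) and those of the other 2/3 (2/3PH), and the remnant was collected 24 h later, so both groups had surgery and neither was an unoperated control. Liver RNA of 3 animals per group went into 1 pool and onto 1 array. No spread between animals was therefore measured, no test was made, and "higher" and "lower" compare 2/3PH with 1/3PH. The study set strong hepatic DNA synthesis after 2/3PH against a small response after 1/3PH and asked which transcripts differ. The sources used here do not give strain, sex or age.

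Electrons enter the respiratory chain at complex I (NADH dehydrogenase) and complex II (succinate dehydrogenase), pass through ubiquinone to complex III and through cytochrome c to complex IV (cytochrome c oxidase), which reduces oxygen. Complexes I, III and IV pump protons, and complex V (ATP synthase) lets them return while it makes ATP. Complex II is encoded wholly in the nucleus, whereas the others combine nuclear and mitochondrial gene products. Hepatocytes are rich in mitochondria, and liver growth after PH draws on ATP for biosynthesis.

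Subunit transcripts lay close to equality between the arrays in every complex. Of the 80 members, 73 reached the signal floor, which was set at the array's median brightness without control probe sets and equals a signal of 89.2. None of these 73 was 2-fold higher or 2-fold lower, whereas among all 9514 genes that reached it, 6.12% were higher by 2-fold or more and 3.68% were lower by as much. At 1.5-fold, 1 subunit was higher (Ndufa5) and 2 were lower (Ndufv3 and Atp5me), against 15.8% and 12.0% of all genes above the floor. Both lower calls were lost under 4 of the 5 other array scalings described below, since a log2 ratio of -0.62 and of -0.61 lies close to that limit. Scaling to the hybridisation or the poly-A control transcripts, which raises the ratios of all genes alike, gave 1 and 2 subunits at least 2-fold higher. At 1.5-fold it gave 3 and 17 higher. The shares of all genes under those scalings were not counted. The median log2 ratio of the subunits was 0.015, with 39 above 0 and 34 below, and that of all genes above the floor was 0.035, with 52.9% above 0.

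The ratios of the subunits were also narrowly spread. Their standard deviation was 0.23 on the log2 scale, beside 0.66 for all genes above the floor. A total of 58 of the 73 subunits (79.5%) had a ratio within 0.25 of 0, as did 38.8% of all genes above the floor. Probe sets of the same gene gave ratios that differed by a pooled SD of 0.33 over 2067 genes, which is larger than the spread over the subunits. That SD takes in every probe set above the floor, dim ones included, whereas a subunit's ratio comes from its brightest. The 2 values are therefore not matched for brightness. Most subunits were among the brighter probe sets of the array, where ratios vary less. Among the 1036 genes with a mean log2 signal of 12 or more, the SD was 0.52, and 1.25% were higher and 4.44% lower by 2-fold or more. At 1.5-fold these shares were 5.98% and 16.4%. The median of these bright genes was -0.11, with 40.4% above 0. Of the 65 subunits in that range, whose median was -0.010 with 49.2% above 0, none was 2-fold different, none was 1.5-fold higher and 2 were 1.5-fold lower, with an SD of 0.20. Across the 73 subunits, which share the arrays and are not replicates, Pearson's r between mean signal and ratio was -0.44 and Spearman's rho -0.39.

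**Figure D1:**
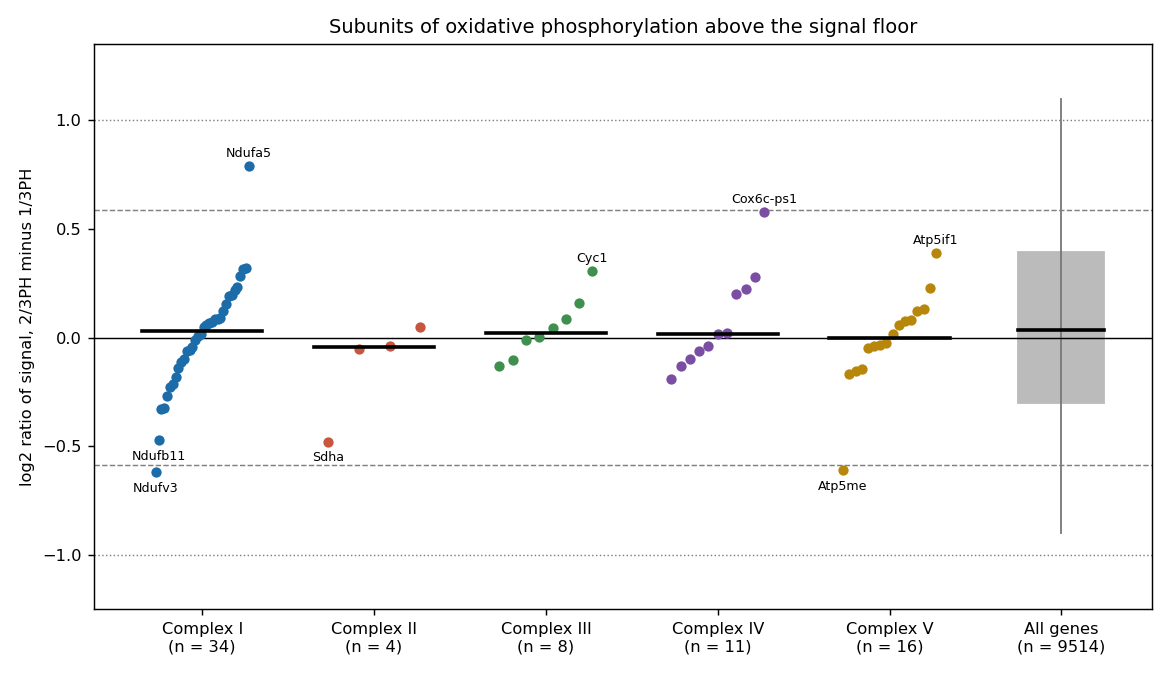
Log2 ratio of signal, 2/3PH minus 1/3PH (y axis), for the 73 subunits above the floor by complex. Points are genes, black bars are medians, the grey box and line are the 25th to 75th and 5th to 95th percentiles of all 9514 genes above the floor, dashed lines mark 1.5-fold and dotted lines 2-fold. No subunit lies beyond the dotted lines, and only Ndufa5, Ndufv3 and Atp5me lie beyond the dashed ones.

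The medians of the complexes lay within 0.1 of each other. They were 0.031 for complex I (34 genes above the floor), -0.045 for complex II (4 genes), 0.023 for complex III (8 genes), 0.017 for complex IV (11 genes) and -0.0037 for complex V (16 genes). The signs of medians this close to 0 depended on the scaling of the arrays. With median centring all 5 lay below 0, and under quantile normalization, removal of a loess trend, and scaling to the hybridisation or the poly-A control transcripts all 5 lay above 0. The 2 control scalings add 1 constant to every ratio and moved the median of all genes to 0.27 and 0.48, so the subunits' median minus that of all genes was -0.020 there as in the deposited values. Median centring also shifts every ratio by 1 constant and left that difference at -0.020. A sign kept under these scalings is therefore not separate support for a direction. Quantile normalization and loess, which act by signal, changed that difference to 0.15 and 0.11. Over the deposited scale and those 5 scalings, 30 subunits lay above 0 throughout, 4 lay below throughout (Ndufv3, Ndufb11, Sdha and Atp5me), and 39 took both signs.

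The promoters of 6 members are shown because these genes carry the contrasts described below: Ndufa5 and Ndufv3 had the highest and lowest ratios, Sdha stood apart from its partner Sdhb, and Cox8a and Cox8b are the forms of 1 subunit above and below the floor. Each is 250 bases before to 50 after the transcription start, 5′ to 3′ on the gene's strand, from RefSeq on GRCr8. Capitals mark 4 motifs on either strand: the core bound by ETS factors such as GABP (CCGGAAG), the core of the NRF1 site (TGCGCA), a core of the YY1 site (AAGATGG) and a TATA box (TATAAA). ETS factors, NRF1 and YY1 are known regulators of nuclear genes for mitochondrial proteins.
Ndufa5, chr4:53971186-53971485 (- strand): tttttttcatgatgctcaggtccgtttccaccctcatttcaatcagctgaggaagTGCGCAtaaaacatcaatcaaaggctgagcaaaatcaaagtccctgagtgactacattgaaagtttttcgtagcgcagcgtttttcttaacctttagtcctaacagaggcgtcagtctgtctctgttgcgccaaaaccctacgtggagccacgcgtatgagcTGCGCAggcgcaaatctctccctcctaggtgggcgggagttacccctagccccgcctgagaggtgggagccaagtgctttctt
Ndufv3, chr20:9613536-9613835 (+ strand): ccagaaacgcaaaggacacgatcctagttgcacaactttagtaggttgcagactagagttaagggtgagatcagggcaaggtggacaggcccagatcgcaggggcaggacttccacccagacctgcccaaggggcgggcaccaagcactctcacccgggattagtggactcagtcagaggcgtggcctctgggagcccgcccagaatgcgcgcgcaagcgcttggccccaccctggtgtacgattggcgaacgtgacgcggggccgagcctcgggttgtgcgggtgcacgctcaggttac
Sdha, chr1:30764303-30764602 (+ strand): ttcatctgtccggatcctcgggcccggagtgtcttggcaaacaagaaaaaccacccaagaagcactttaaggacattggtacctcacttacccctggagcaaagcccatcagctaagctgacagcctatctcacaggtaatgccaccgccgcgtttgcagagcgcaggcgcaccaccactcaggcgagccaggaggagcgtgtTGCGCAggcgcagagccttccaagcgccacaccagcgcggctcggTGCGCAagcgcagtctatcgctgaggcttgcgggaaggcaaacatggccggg
Sdhb, chr5:158547684-158547983 (+ strand): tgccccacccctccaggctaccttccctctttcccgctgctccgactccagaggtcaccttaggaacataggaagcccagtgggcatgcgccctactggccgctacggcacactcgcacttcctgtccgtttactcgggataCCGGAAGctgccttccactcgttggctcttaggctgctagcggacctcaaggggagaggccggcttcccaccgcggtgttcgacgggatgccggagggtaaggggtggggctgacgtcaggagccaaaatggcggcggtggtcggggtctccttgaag
Cox8a, chr1:213833574-213833873 (- strand): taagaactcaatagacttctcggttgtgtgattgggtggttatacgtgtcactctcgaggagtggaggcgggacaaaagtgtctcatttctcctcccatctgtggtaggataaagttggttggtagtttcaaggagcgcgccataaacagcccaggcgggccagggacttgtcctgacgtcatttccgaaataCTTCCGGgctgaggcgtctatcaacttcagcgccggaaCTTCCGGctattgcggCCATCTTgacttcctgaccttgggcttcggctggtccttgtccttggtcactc
Cox8b, chr1:205408224-205408523 (- strand): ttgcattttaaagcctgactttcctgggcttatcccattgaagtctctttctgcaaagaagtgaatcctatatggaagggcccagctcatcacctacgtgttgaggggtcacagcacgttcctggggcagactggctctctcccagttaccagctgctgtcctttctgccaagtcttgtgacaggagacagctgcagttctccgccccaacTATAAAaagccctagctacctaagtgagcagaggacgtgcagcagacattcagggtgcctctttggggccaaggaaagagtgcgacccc
Ndufa5 and Sdha each hold 2 copies of the NRF1 core, Sdhb holds 1 ETS core, Cox8a holds 2 ETS cores and 1 YY1 core, Cox8b holds a TATA box and none of the others, and Ndufv3 holds none of the 4.

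Motifs of these factors were common among the subunit promoters. A promoter of this length was held for 71 of the 80 members. Of 65 promoters of subunits above the floor, 20 (30.8%) held the ETS core, 19 (29.2%) the NRF1 core and 18 (27.7%) the YY1 core. These shares were 19.5%, 14.2% and 8.81% over 7995 promoters of genes above the floor, and 9.22%, 7.68% and 7.30% over all 27457 promoters. The letters of a TATA box, counted at any position on either strand, were present in 7 of the 65 (10.8%). They were present in 6.94% of the promoters of genes above the floor and in 14.3% of all promoters. Their distance from the start was not considered. The median number of CpG dinucleotides was 20 in the subunit promoters and 21 in those of genes above the floor. Of 6 promoters of members below the floor, none held the ETS core or the NRF1 core and 1 held the YY1 core, and their median CpG count was 7. A match of letters is a description and does not show binding.

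Complex I, the largest of the complexes, oxidises NADH. Ndufa5, a supernumerary subunit, that is 1 outside the catalytic core, read 1548 in 1/3PH and 2678 in 2/3PH (all signals below in this order), 1.73-fold higher and the highest ratio of the 73. Its log2 ratio of 0.79 lay between 0.74 and 1.23 over the deposited and 5 other scalings and passed 2-fold with hybridisation control scaling (1.03). Ndufv3, an accessory subunit of the NADH-binding module, had signals of 6425 and 4187, 1.53-fold lower and the lowest ratio. A dimmer Ndufv3 probe set gave signals of 194 and 159.9, a log2 ratio of -0.28 beside -0.62. Ndufb11, an accessory subunit of the membrane arm, was 1.39-fold lower, with signals of 7654 and 5523.

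The catalytic core of complex I carries the flavin and the iron-sulfur clusters. Of its 6 members above the floor, 5 were above 0 as deposited, with a median of 0.10, and 4 were so with median centring. Ndufv2 had signals of 7011 and 8725, a log2 ratio of 0.32. Ndufs7 had signals of 4309.9 and 5239, a ratio of 0.28, and Ndufs8 signals of 3146 and 3422, a ratio of 0.12. Both carry iron-sulfur clusters. Ndufs1, the largest subunit, had signals of 5751 and 6103, a ratio of 0.086. Ndufs3 had signals of 4313 and 4457, a ratio of 0.047 that turned negative with median centring. Ndufv1, which binds NADH and flavin mononucleotide, was the 1 core member below 0, at 3082 and 2797, a ratio of -0.14 that was positive under both control scalings.

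The 27 supernumerary subunits of complex I were divided, with 14 above 0 and 13 below and a median of 0.0089, or -0.043 with median centring. Apart from Ndufa5, the higher end held Ndufb5 (signals 9379 and 11708, log2 ratio 0.32), Ndufa12 (5782 and 6787, 0.23) and Ndufb8 (1175 and 1367, 0.22). The lower end held, after Ndufv3 and Ndufb11, Ndufa6 (11032 and 8796, -0.33), Ndufa1 (10174.7 and 8122, -0.33) and Ndufa3 (10425 and 8655, -0.27), the last 3 turning positive with poly-A control scaling. The centre held subunits with nearly equal signals. Ndufb9 read 14649.9 and 14740.4, Ndufa9 4933 and 4898, and Ndufa7 4789 and 4839. A dimmer Ndufa7 probe set above the floor read 291 and 369, a log2 ratio of 0.35. Ndufa4, named for complex I and now placed with complex IV, had signals of 14551 and 12437, a log2 ratio of -0.23 that turned positive under both control scalings.

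Complex II, the enzyme shared by the chain and the TCA cycle, had 3 nearly equal members and 1 lower. Sdha, the flavoprotein that oxidises succinate, had signals of 8292 and 5954, 1.39-fold lower and a log2 ratio of -0.48. Sdhb, its iron-sulfur partner, had signals of 8592 and 8874, a ratio of 0.047. The membrane anchors Sdhc (10448 and 10178) and Sdhd (9914 and 9560.2) had ratios of -0.038 and -0.052. A second Sdhd probe set had a ratio of 0.032. Sdha lay below 0 in all 6 scalings, down to a difference of -0.036 with poly-A control scaling, whereas the ratios of the other 3 took both signs.

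Complex III passes electrons from ubiquinol to cytochrome c, and all 8 of its members lay within 1.5-fold. Cyc1, the cytochrome c1 subunit, had signals of 6592 and 8145, 1.24-fold higher and a log2 ratio of 0.31. Uqcrfs1, the Rieske iron-sulfur protein, had signals of 11777 and 13131, a ratio of 0.16. Both were above 0 in all 6 scalings, and both ratios were smaller than the SD of 0.33 between probe sets of the same gene, which includes dimmer probe sets. The core proteins Uqcrc1 (5856 and 6220.1) and Uqcrc2 (10555 and 10564) had ratios of 0.087 and 0.0013, the latter negative with median centring. A dimmer Uqcrc2 probe set gave 0.73, so its probe sets disagreed. Of the 4 small subunits, Uqcrh (12508 and 12892) lay at 0.044, Uqcr11 (9745 and 9669.98) at -0.011, Uqcrq (17335 and 16145) at -0.10 and Uqcr10 (15641 and 14298) at -0.13. These 4 were below 0 with median centring and above 0 under the other 4 alternative scalings.

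Complex IV was split between liver-expressed subunits above the floor and tissue-restricted forms below it. All 9 ubiquitous or liver forms with a probe set of their own were above the floor on both arrays, with 4 above 0 and 5 below. Cox4i1 had signals of 8992 and 8611, a log2 ratio of -0.063. Cox6a1 (11748 and 11937) lay at 0.023, Cox8a (15949 and 16134) at 0.017, Cox5b (13381 and 13040.0) at -0.037 and Cox6b1 (9647 and 9018) at -0.097. Cox7c (9019 and 10355) lay at 0.20, Cox5a (404 and 472, from the dimmer of its probe sets, since a bright one also lists another gene) at 0.22, Cox7b (21129.7 and 19321.5) at -0.13 and Cox6c (18876 and 16515) at -0.19. With median centring 2 of the 9 were above 0, and with either control scaling all 9 were. Cox7a2l, a factor that joins complexes III and IV into supercomplexes, had signals of 4113 and 4992, a ratio of 0.28 that was positive in all 6 scalings.

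The tissue-restricted forms were not seen above the floor in either group. Cox4i2, a lung form, had signals of 5.59 and 36.8. Cox6a2, a heart and muscle form, had signals of 19.1 and 3.38, and the muscle form Cox8b 5.07 and 4.68. Cox7a1, a muscle and brown fat form, had signals of 74.9 and 67.6, just under the floor, the testis form Cox6b2 31.7 and 18.7, and Cox7b2 19.6 and 21.9. Ndufa4l2, a hypoxia-induced relative of Ndufa4, had signals of 6.43 and 14.1. No fold is given for these 7 members, since both arrays lay under the floor. Cox6c-ps1, a pseudogene copy of Cox6c whose probes may share its transcripts, was the member just inside the floor, with signals of 89.0, just under it, and 133, at least 1.49-fold higher when set against the floor.

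**Figure D2:**
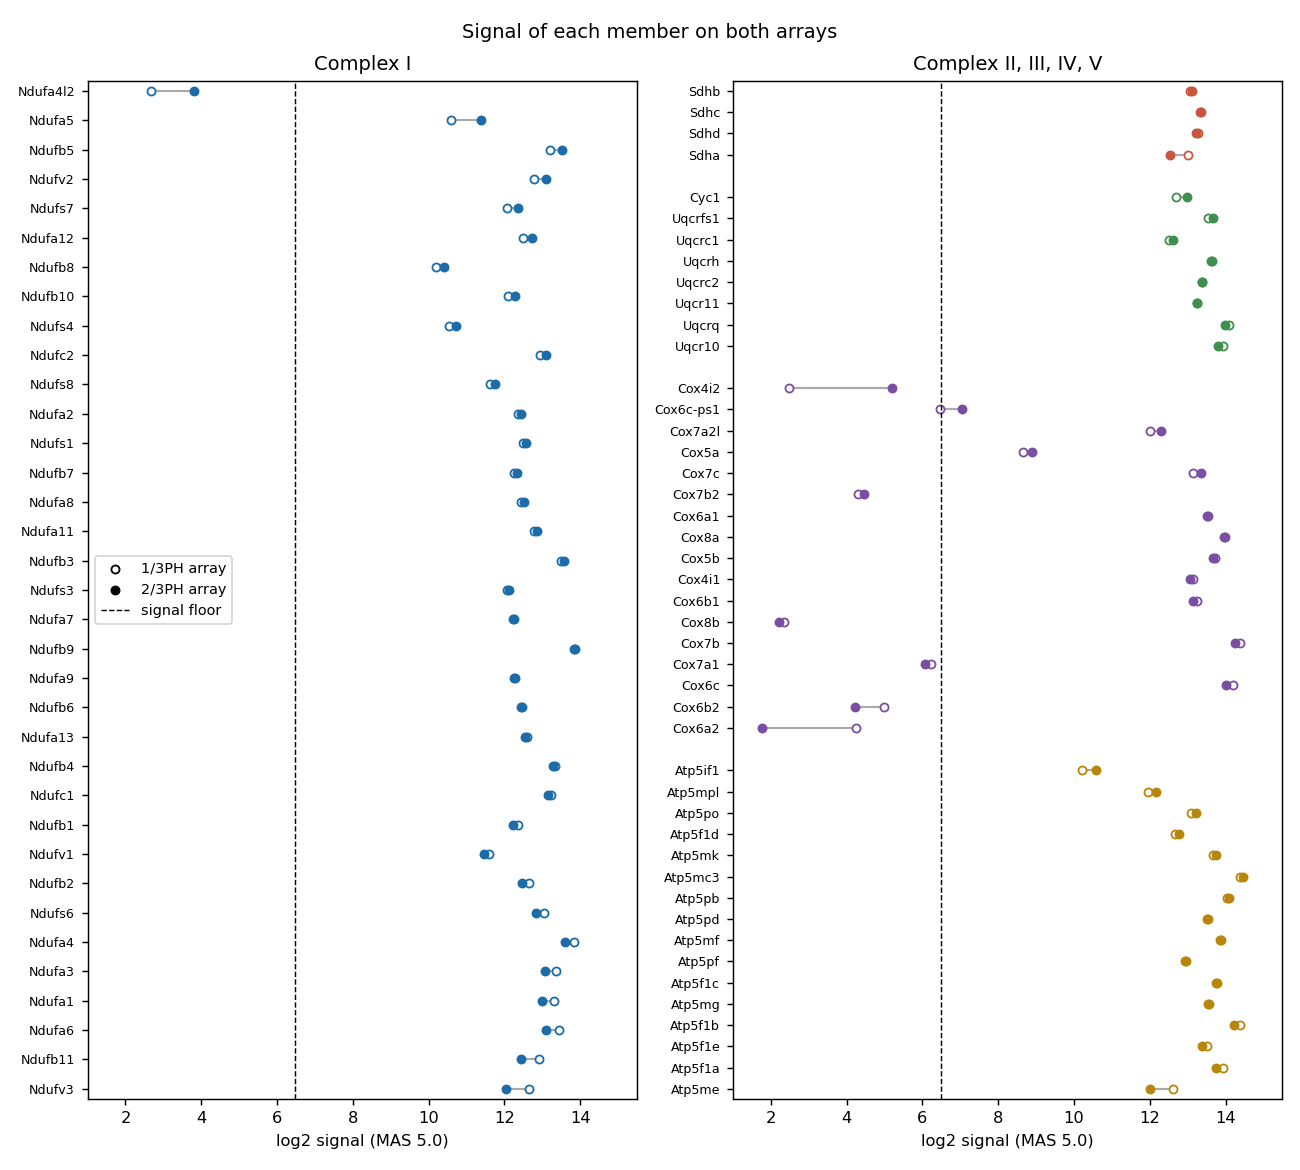
Log2 signal (x axis, MAS 5.0) of each of the 80 members on the 1/3PH array (open circles) and the 2/3PH array (filled circles), complex I on the left and complexes II to V on the right, ordered by ratio within a complex. The dashed line is the signal floor at a log2 signal of 6.48, and 6 members of complex IV and Ndufa4l2 lie below it on both arrays.

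Complex V was balanced around 0, with 8 of 16 members above it. The F1 part holds the catalytic sites, and its 5 subunits had a median of -0.15 that was above 0 under 4 of the 5 alternative scalings, median centring being the exception. The alpha and beta subunits Atp5f1a (15502.5 and 13789) and Atp5f1b (21227 and 19192) had log2 ratios of -0.17 and -0.15. The gamma subunit Atp5f1c (14059 and 13684) lay at -0.039, the delta subunit Atp5f1d (6449.9 and 7016) at 0.12 and the epsilon subunit Atp5f1e (11726 and 10546) at -0.15. The peripheral stalk, which holds F1 still against the rotor, had Atp5po (8677 and 9495) at 0.13, Atp5pb (16877 and 17578) at 0.059, Atp5pd (11637 and 11787) at 0.018 and Atp5pf (7933 and 7759) at -0.032. Atp5mc3, which encodes the proton-carrying c ring subunit, had signals of 21191 and 22333, a ratio of 0.076 that was positive in all 6 scalings.

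Atp5me, a small membrane subunit, was the lowest of complex V, with signals of 6271 and 4115, 1.52-fold lower and a log2 ratio of -0.61. Its second probe set lay under the floor on both arrays, at 33.6 and 70.3. The other small membrane subunits Atp5mf (14993 and 14726) and Atp5mg (12163 and 11769.5) had ratios of -0.026 and -0.048, and Atp5mk (13017 and 13759.9) and Atp5mpl (3937 and 4607) had ratios of 0.080 and 0.23. Atp5if1, the inhibitor that stops ATP hydrolysis by the enzyme, was the highest, with signals of 1179 and 1544, a ratio of 0.39. Its 2 dimmer probe sets went the other way, at -0.25 and -0.44, so no direction is given for it.

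**Figure D3:**
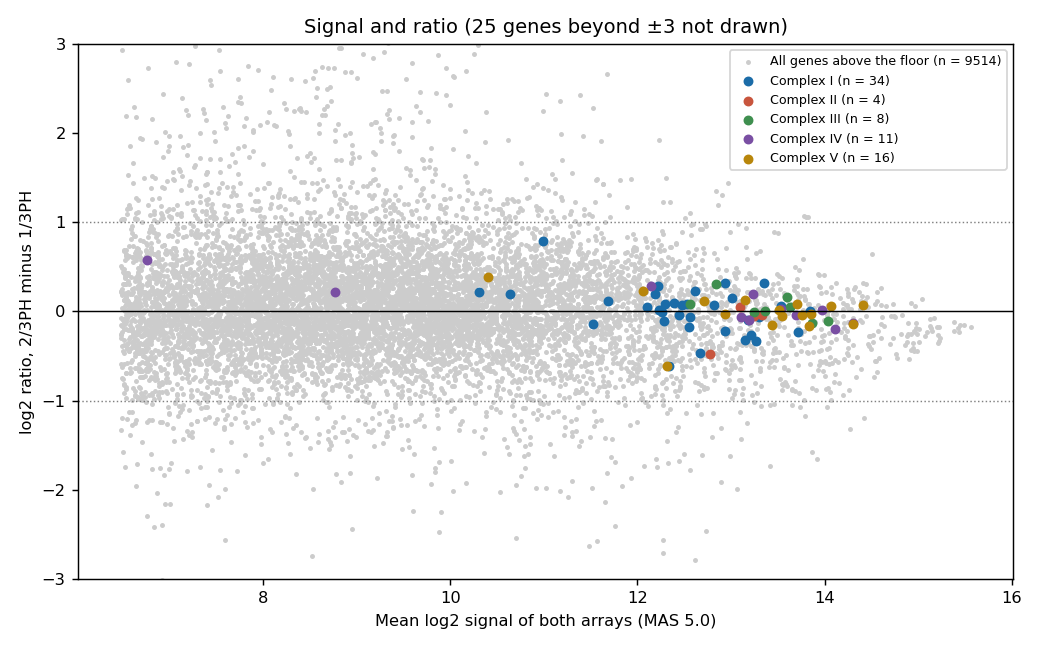
Log2 ratio, 2/3PH minus 1/3PH (y axis), against the mean log2 signal of both arrays (x axis, MAS 5.0) for all 9514 genes above the floor (grey) and the 73 subunits coloured by complex. Dotted lines mark 2-fold, and 25 genes beyond a log2 ratio of 3 in either direction are not drawn. The subunits sit mostly at a mean log2 signal above 12 and between the dotted lines.

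Some subunits could not be assigned. RefSeq lists 110 protein-coding nuclear genes that match the rule, and 79 of them had a probe set under their symbol alone, which with Cox6c-ps1 makes the 80 members. A further 11 were listed only together with another gene, usually a near copy, and 20 had neither. The 7 probe sets that list a subunit beside another gene had log2 ratios from -0.22 to 0.29 with a median of 0.032, and 6 of them were above 0. They were left unnamed. None of 13 mitochondrially encoded subunits was matched to a named probe set, so the mitochondrial partners of complexes I, III, IV and V were not analysed here.

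Factors that build the chain had a median log2 ratio of 0.23, beside 0.015 for its subunits and 0.035 for all genes above the floor. Of 43 assembly factors above the floor, 30 (69.8%) were above 0, against 52.9% of all genes. At 2-fold, 1 was higher and none lower, a smaller share than the 6.12% and 3.68% of all genes, and the list's median was positive in all 6 scalings. The gap to the subunits depended on the scaling. Under quantile normalization the median was 0.16 for these factors and 0.15 for the subunits, and with the loess trend removed 0.19 and 0.13. Ndufaf4, a complex I assembly factor, had signals of 1444 and 2994, 2.07-fold higher. Bcs1l, which inserts the Rieske protein into complex III, was 1.74-fold higher (858 and 1497), and Tmem186, another complex I factor, 1.68-fold higher (409 and 688).

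Lists of proteins that supply the mitochondrion also had medians above that of all genes. The share of 2-fold calls was below that of all genes except in the small list of regulators. Of 73 mitochondrial ribosomal proteins, which translate the mitochondrially encoded subunits, 67 (91.8%) were above 0, with a median of 0.30, and 3 were 2-fold higher, a smaller share than in all genes. Mrpl12 had signals of 4127 and 8874, Mrps6 734 and 1552 and Mrps27 467 and 953. Of 38 import and folding genes above the floor, 27 (71.1%) were above 0, with a median of 0.31, and 2 were 2-fold higher, again a smaller share than in all genes. The translocase components Timm21 (1006 and 2414), Timm9 (1149 and 2495) and Tomm20 (4780.01 and 9096) were 2.40-fold, 2.17-fold and 1.90-fold higher. Of 12 regulators of mitochondrial gene expression above the floor, 11 (91.7%) were above 0, with a median of 0.36. Of these 12, 2 were 2-fold higher, a larger share than the 6.12% of all genes, in a short list. Pprc1, a PGC-1 related coactivator, was 2.50-fold higher (296 and 738), the nuclear receptor Esrra 2.08-fold (119.9 and 249) and the stress factor Nfe2l2 1.71-fold (3479 and 5939.7). The medians of these 3 lists were positive in all 6 scalings, but median centring and the control scalings only shift every ratio by 1 constant. Under quantile normalization the medians were 0.30 for the ribosomal proteins, 0.28 for import and folding and 0.28 for the regulators. With the loess trend removed they were 0.31, 0.32 and 0.30. With 1 array per group, the difference between these lists and the subunits was not tested.

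On the deposited scale, other mitochondrial lists lay nearer to the subunits. This order depended on the scaling: under quantile normalization the TCA cycle lay at 0.19, the assembly factors at 0.16 and the subunits at 0.15. The TCA cycle had a median of 0.092 over 16 genes, and the adenine nucleotide and other carriers with the porins 0.10 over 13, with no gene 2-fold different in either. Idh3a of the TCA cycle had signals of 147 and 279, and the porin Vdac2 6161 and 10097. Coenzyme Q synthesis and electron carriers had a median of -0.032 over 15 genes, positive under both control scalings, and Coq8a, a kinase-like coenzyme Q factor, was 4.03-fold lower (4641 and 1152). Mitochondrial DNA maintenance had a median of -0.046 over 17, also positive under both control scalings, with the polymerase accessory subunit Polg2 2.64-fold lower (4088 and 1548) and the nuclease Mgme1 2.45-fold higher (576 and 1413). Ion pumps outside mitochondria, including the vacuolar ATPase, had a median of 0.097 over 15, with none 2-fold different.

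**Figure D4:**
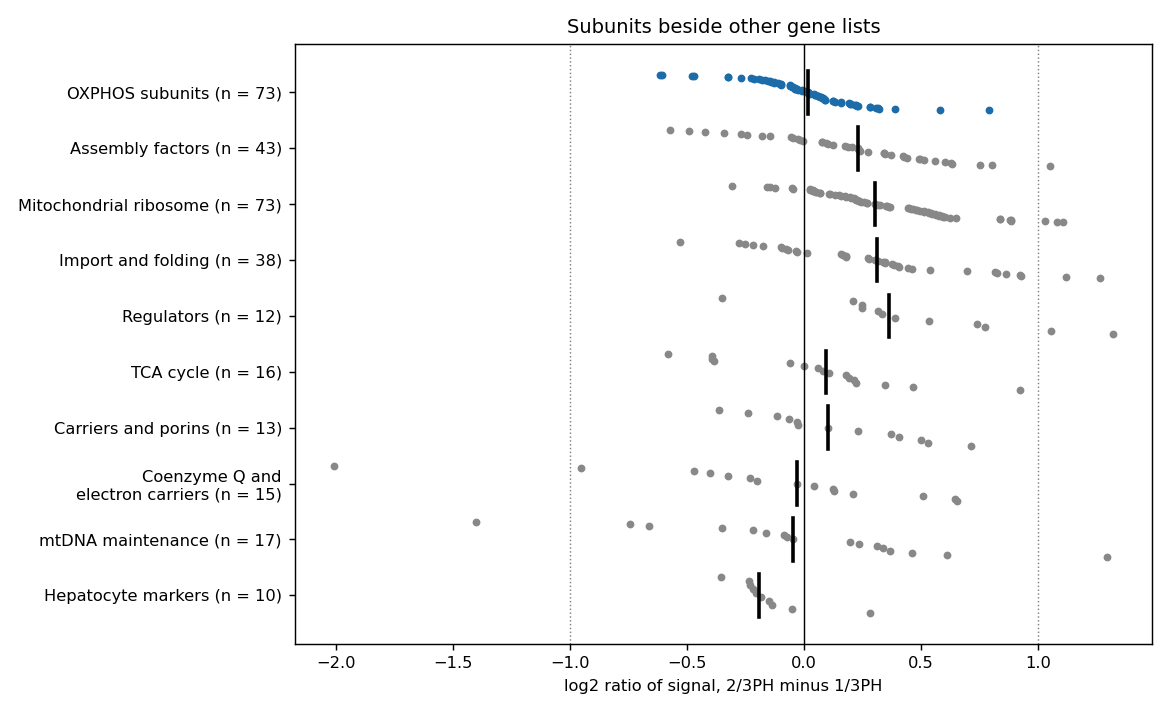
Log2 ratio of signal, 2/3PH minus 1/3PH (x axis), for genes above the floor in the subunit set (blue) and in 9 other lists, 8 mitochondrial and 1 of hepatocyte markers (grey), with black bars at the medians and dotted lines at 2-fold. On the deposited scale the subunits centre on 0.015, and the assembly factors, mitochondrial ribosomal proteins, import genes and regulators centre between 0.23 and 0.36. The hepatocyte list holds F3 in place of Tf.

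The tissue label was checked against markers. All 10 genes matched to the hepatocyte list were above the floor, with 9 lower. Their median was -0.19 and their summed signal 282614 after 1/3PH and 251122 after 2/3PH. These 10 include F3 (121 and 105), which was matched in place of Tf through a shared synonym and is not a listed marker. Tf itself was therefore not checked. The median of the 10 was above 0 under every scaling other than the deposited one and median centring. Markers of several other cells were lower on the 2/3PH array. Of macrophage and Kupffer cell markers, 12 of 12 were lower (summed signal 22862 and 15466), of endothelial markers 8 of 8 (12569 and 8208), of stellate cell and matrix markers 7 of the 9 above the floor (14592.5 and 8646), and of neutrophil and erythroid markers 5 of 5 (30146 and 14646.5). Cholangiocyte markers had 3 of 5 above the floor and 1 lower (1293 and 1328), and lymphocyte markers 2 of 7 above the floor and 1 lower (466 and 407). Of 11 muscle and brown fat markers, 9 were under the floor, Ckm, Acta1 and Ucp1 among them. The other two were Myh1 (10454 and 6803), whose probe set carried most of the list's summed signal of 11422.5 and 7967, and Cidea (727 and 942). All 5 testis markers were under the floor (summed signal 59.0 and 91.4). The part of these cells in the subunits' ratios was not tested. In a bulk sample, fewer cells of a type and less RNA per cell cannot be told apart, and because each array is scaled to the same mean, a change in total mitochondrial RNA per cell cannot be read from these values.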

How the data were processed

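Liver RNA pooled from 3 rats per group was measured on 1 Affymetrix array per group. Per the labels' protocols, the authors computed signals with MAS 5.0 in GeneSpring 11.0. The deposited values are log2 signals of 31099 probe sets, and taking them as exponents of 2 gives trimmed mean signals (2% off each end) of 500.3 and 500.2 on the 1/3PH and 2/3PH arrays. The sources used here do not state the scaling target or detection calls. Probe sets were named from the platform annotation, to whose symbols the member rule was applied, and genes carry the current RefSeq symbol (GRCr8) found through Entrez identifiers. Of the probe sets, 20826 had 1 symbol, 436 several and 9780 none, besides 57 controls. Promoter motifs were searched as exact letters on both strands.

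A gene's value is its brightest probe set, and the floor is a log2 signal of 6.48. Counts, medians and log2 ratios (2/3PH minus 1/3PH) were computed in Python 3.11.15 with pandas 2.3.3 and tested on simulated data. The simulated shifts were all larger than 2-fold, so that test does not bear on the precision of ratios as small as the subunits'. With 1 array per group no test was made and the number of arrays limits the precision. The members and lists were chosen with earlier results of these data known. Named genes were, in each complex, the 4 highest and 4 lowest ratios, members past 1.5-fold, catalytic core subunits, complex II and tissue forms, and up to 3 genes of each other list by absolute ratio; other members were named where they fill a role. The alternatives were 5 other scalings, no floor or a higher one (75th percentile), a pseudocount of 64 on the signal, averaging a gene's probe sets, leaving out the _s_at, _x_at and _a_at types, and 3 other member definitions. A further alternative that counts the probe sets with several symbols was added after seeing the data.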

Additional observations from a re-analysis of the deposited data

How the results depend on the processing

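With 1 array per group no replicate could be left out, and no paired analysis was possible because each group has 1 pooled sample. A median was taken as moved when it left the interval that exact binomial order statistics give around it over the genes (at least 95%, or the range for complex II). For complex III that interval, -0.13 to 0.31, is also the full range of its genes. A count was taken as moved when it changed by over 1.5 times. The median log2 ratio of all subunits, 0.015 as deposited, was 0.15 under quantile normalization, 0.13 with the loess trend removed, 0.25 when scaled to the hybridisation controls and 0.46 when scaled to the poly-A controls. In the same order the median of complex I was 0.13, 0.12, 0.27 and 0.47, that of complex II 0.11, 0.075, 0.19 and 0.40, and that of complex V 0.17, 0.14, 0.23 and 0.44. Complexes III and IV left their intervals with poly-A control scaling, at 0.46 each. With the hybridisation controls they lay at 0.26 and 0.25, a shift equal to that of the other complexes, but inside intervals that are wider with fewer genes, so this shows no greater stability. Genes that share 2 arrays are not replicates, and the intervals serve here as limits of description. Subunits above 0 numbered 59 under quantile normalization, 66 on the hybridisation controls and 69 on the poly-A controls, against 39. With the loess trend removed they numbered 58, which is just inside the limit of 1.5 times and so was not counted as moved. Subunits at least 2-fold higher numbered 1 on the hybridisation controls, 2 on the poly-A controls and 2 without a floor, and 1 was 2-fold lower without a floor. Subunits at least 1.5-fold higher numbered 3, 17 and 3 under those settings. Subunits at least 1.5-fold lower fell from 2 to 0 under quantile, loess and both control scalings and with the mean over probe sets, to 1 without the _s_at, _x_at and _a_at probe sets, and rose to 4 without a floor, where the added genes are those under it. The other 119 of 154 comparisons with an alternative kept their value within these limits, the probe sets of several symbols included. Some of these could not move. Counting Ndufa4 with complex IV leaves every result over all subunits as it was, and choosing members by updated symbols gave the main value throughout. The tally is therefore not a measure of stability. The control scalings add 1 constant to every log2 ratio, so their shift is the same for all genes. Quantile normalization and loess act by signal. Under them the median of all genes with a mean log2 signal of 12 or more moved from -0.11 to 0.028 and 0.014. The cause of the subunits' shifts under these 2 was not tested. Signal over background limits the 7 members under the floor, for which no fold is given.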
